A study of Mus musculus with 12 samples.

Results

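The genes described here encode the proteins of the mitochondrial ribosome. They were chosen by name, as every row of the deposited table whose only gene symbol begins with Mrpl (large subunit) or Mrps (small subunit) followed by a number. This gave 87 of the 21218 rows with 1 gene symbol. A row is a transcript cluster, the array's unit for 1 transcribed locus, and the 87 rows stand for 74 genes. Of these, 48 genes encode large-subunit proteins and 25 encode small-subunit proteins. Mrps36 was named as a ribosomal protein and has since been assigned to the 2-oxoglutarate dehydrogenase complex. Another 9 rows pair an Mrpl or Mrps symbol with further symbols and were left out. Mrpl24, Mrpl43, Mrpl53 and Mrps6, which are also ribosomal proteins, had no row with a single symbol and were not analysed here.

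Mitochondria keep a small genome that encodes core subunits of the respiratory chain and the ATP synthase, together with the RNAs of their own ribosome. All protein components of that ribosome are encoded in the nucleus, made in the cytosol and imported, so the mitochondrial ribosome depends on transcripts from both genomes. Heart muscle is dense in mitochondria, and inherited defects of these proteins are known for heart and brain disease.

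RNA was measured on 12 arrays of cerebrum and heart, with 3 arrays for each tissue and treatment. All mice were labelled C57BL/6J with the genotype humanized knock-in IKBKAP FDloxP/+, a model of familial dysautonomia (FD), a neuropathy in which IKBKAP transcripts are mis-spliced. From 4 months of age, mice were gavaged on alternate days for 3 months with 100 microliters of either phosphatidylserine (PS, 200 mg/kg), a membrane phospholipid, or medium-chain triglycerides (MCT), the vehicle. The study asked whether PS alters gene expression in these mice. The genotype label is the same on all arrays, so by that label no group lacks the humanized allele. The labels disagree elsewhere, with 6 FD animals in one place and 3 FD beside 3 wild-type animals in another. They also disagree on the dose, which the source names give as 200 mg per day. Replicates are labelled as biological. The design counts 6 mice, 3 per treatment, for the 12 arrays, so a mouse may have given both a heart and a cerebrum array. Values are log2 intensities as deposited by the authors. An intensity depends on the probes, so levels are compared between arrays for 1 transcript cluster and not between genes.

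Several features of the arrays bear on the comparisons. All 9 measured cardiomyocyte markers were higher in heart and all 6 neuronal markers were higher in cerebrum, which matches the labelled tissues. Xist, the RNA that silences an X chromosome in females, stood at 8.92 to 9.86 in all 3 PS hearts and in PS cerebra 1 and 3. It stood at 3.32 to 4.03 in PS cerebrum 2 and in all MCT arrays, which also carried the Y-linked Eif2s3y at 7.25 to 8.67. In heart, PS and this sex-linked pattern therefore cannot be told apart. In cerebrum they part only in PS cerebrum 2. The hearts and cerebra under MCT all had the male pattern. Under PS only cerebrum 2 had it, so the tissue comparison under PS mixes both patterns. PS heart 2 and PS cerebrum 2 had opposite patterns, so an equal number did not mark 1 mouse there. Myl7, an atrial myosin light chain, read 8.53 in MCT heart 3 and 6.80 in PS heart 3, against 4.16 to 5.08 in the other hearts. Other listed atrial markers were divided. Myl4 (9.62 and 9.18, against 6.99 to 7.93) and Sln (4.80 and 4.63, against 3.91 to 4.07) were also higher in those hearts. Nppa was lower there (10.44 and 10.71, against 11.31 to 12.31), and Bmp10 read 3.12 to 3.51 in all hearts.

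Promoter sequences were available for 65 of the 74 genes. The tables hold 300 bases for each promoter, from 250 before to 50 after the transcript start (RefSeq, GRCm38.p6), and 71 promoters matched. They were searched on both strands for short words bound by factors that are known to act on nuclear genes for mitochondrial proteins. The word CCGGAAG, the core bound by ETS factors such as GABPA, was in 24 promoters (33.8%, against 11.6% of 21263 promoters of coding genes). The word AAGATGGC, bound by YY1, was in 12 promoters (16.9%, against 3.05%). The word GCGCATGC, bound by NRF1, was in 8 promoters (11.3%, against 3.52%). The word GGGCGG, bound by SP1 and its relatives, was in 37 (52.1%, against 46.2%). At least 1 of the first 3 words occurred in 36 of the 71 (50.7%, against 16.7%). The words can share letters at their ends, such as the AAG that ends the ETS word and begins the YY1 word. A match is a string of letters and not a measured binding site.

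Promoters are shown for 3 genes whose values stood apart. Mrpl42 had the largest difference between heart and cerebrum, and Mrps5 differed least between the tissues under MCT. Mrps21 alone was higher with PS in cerebrum at an adjusted p under 0.05. Words for ETS, YY1 and NRF1 are in capitals. Mrpl42 (chr10:95501900-95502199, minus strand) holds the YY1 word just after its start. Mrps21 (chr3:95871465-95871764, minus strand) holds the ETS word in reverse orientation after its start. Mrps5 (chr2:127587176-127587475, plus strand) holds none of the 3.
Mrpl42: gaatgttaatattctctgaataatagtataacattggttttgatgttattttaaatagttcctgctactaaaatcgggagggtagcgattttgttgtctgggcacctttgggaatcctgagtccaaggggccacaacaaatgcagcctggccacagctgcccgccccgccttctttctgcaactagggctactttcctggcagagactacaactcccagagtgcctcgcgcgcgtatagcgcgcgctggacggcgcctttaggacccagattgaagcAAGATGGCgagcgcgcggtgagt
Mrps21: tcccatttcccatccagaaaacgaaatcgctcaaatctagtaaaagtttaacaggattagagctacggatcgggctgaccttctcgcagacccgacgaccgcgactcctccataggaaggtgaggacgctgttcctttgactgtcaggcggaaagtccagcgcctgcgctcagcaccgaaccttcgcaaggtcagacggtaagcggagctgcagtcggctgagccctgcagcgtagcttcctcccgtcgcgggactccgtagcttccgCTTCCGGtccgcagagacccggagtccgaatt
Mrps5: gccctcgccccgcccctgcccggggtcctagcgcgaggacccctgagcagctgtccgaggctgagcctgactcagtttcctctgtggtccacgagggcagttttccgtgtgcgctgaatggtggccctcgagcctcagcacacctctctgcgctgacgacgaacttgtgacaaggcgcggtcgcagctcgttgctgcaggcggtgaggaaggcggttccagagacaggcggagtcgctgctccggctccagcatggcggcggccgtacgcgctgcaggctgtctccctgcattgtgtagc

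The first comparison was between the tissues of mice that received the vehicle. All 84 member rows tested had a higher mean in heart than in cerebrum, and for 79 the difference passed an adjusted p of 0.05 (limma with Benjamini-Hochberg adjustment over all 12734 rows tested). None passed as lower. Over all rows, 35.2% were called higher and 40.3% lower in heart. The median log2 difference of the members was 1.22, with a range of 0.14 to 3.29, beside -0.07 over all rows tested. In bulk tissue, more cells rich in mitochondria and more RNA per cell cannot be told apart.

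Among large-subunit genes, Mrpl42, a mitochondria-specific protein with no bacterial counterpart, differed most. Its values under MCT were 10.33, 10.36 and 9.69 in heart and 6.85, 6.91 and 6.76 in cerebrum. The groups lay far apart, and the log2 difference was 3.29 ± 0.18 (SE, n = 3 and 3, adjusted p = 4.31e-07), a 9.76-fold difference. Mrpl14, a conserved protein at the face that meets the small subunit, read 10.03, 9.94 and 9.41 in heart and 7.18, 7.10 and 6.97 in cerebrum. Again no array of one tissue reached the other, with a difference of 2.71 ± 0.17 (adjusted p = 9.84e-07). The 2 transcript clusters of Mrpl18 differed by 2.13 and 2.28, Mrpl54 by 2.00 and Mrpl55 by 1.98.

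Among small-subunit genes, Mrps28 differed most, with 8.76, 8.59 and 7.75 in heart and 6.10, 6.12 and 5.93 in cerebrum. The difference was 2.32 ± 0.24 (adjusted p = 2.72e-05), and MCT heart 3 was the lowest heart. Mrps23, a mitochondria-specific protein, was higher in heart by 2.20 and Mrps21, which has a bacterial counterpart, by 2.15. Mrps36, the reassigned gene, was higher by 2.24.

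**Figure D1:**
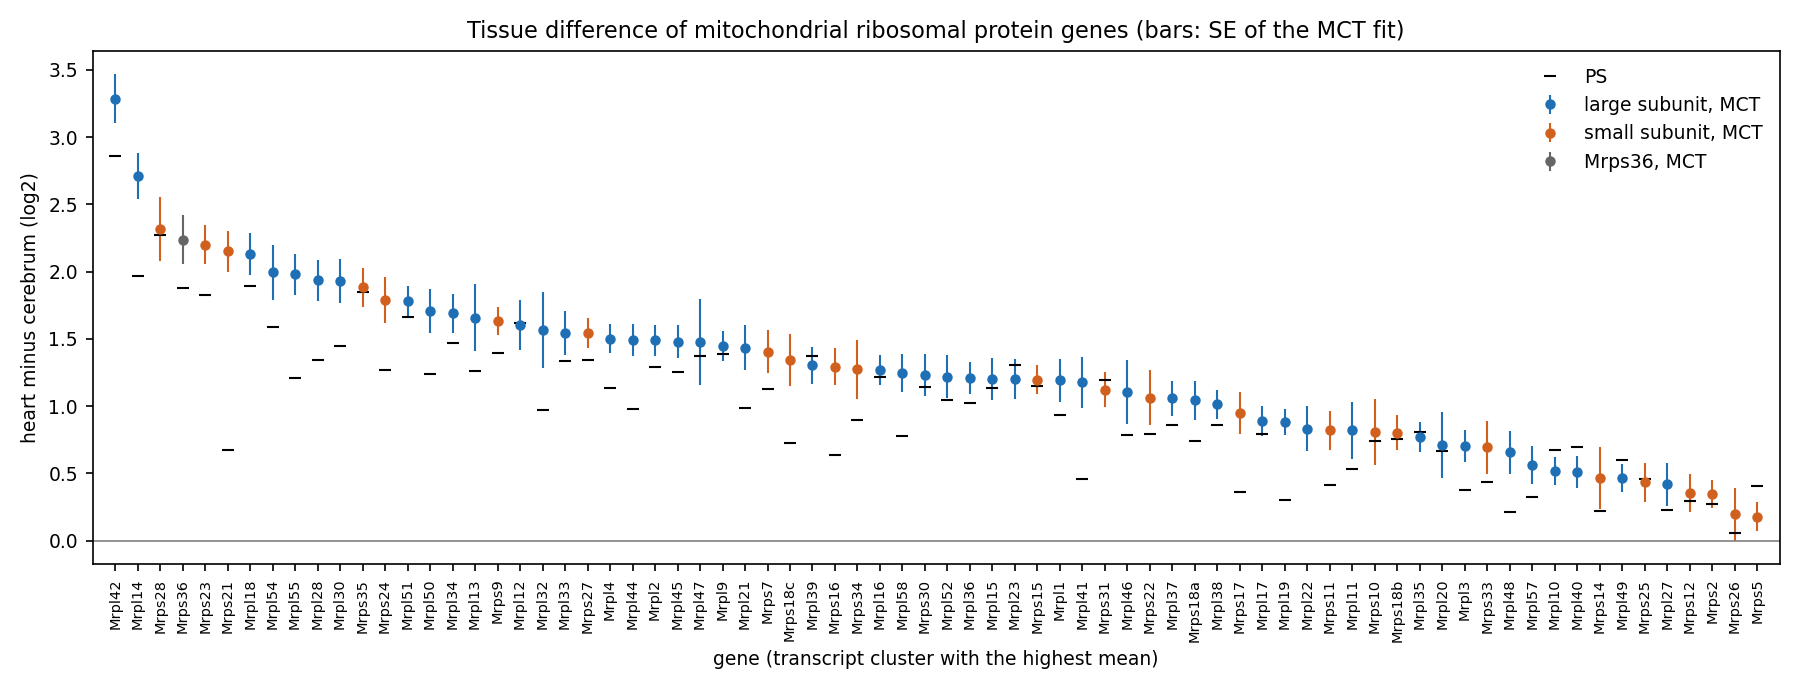
Log2 difference of heart minus cerebrum for each gene (the transcript cluster with the highest mean), ranked by its value under MCT (points, with error bars of 1 SE from that fit), with the value under PS as a dash. All 74 genes lie above 0 under MCT, from 0.18 for Mrps5 to 3.29 for Mrpl42, and most PS values lie below the MCT value of the same gene. Mrpl22 was not tested under PS.

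Grouped by role and with 1 transcript cluster per gene, all subunit classes were higher in heart. The 29 large-subunit genes with bacterial counterparts all passed the test, with a median difference of 1.43. The 19 mitochondria-specific genes of the large subunit also all passed, with a median of 1.22. In the small subunit, 13 of 15 genes with bacterial counterparts passed (median 1.20), as did 9 of 10 mitochondria-specific genes (median 1.09). No test was made of differences among these classes.

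The 5 rows that did not pass came from 4 genes. Mrps5, a conserved protein of the small subunit, had 2 transcript clusters with differences of 0.18 ± 0.11 and 0.14 ± 0.10. The first read 8.55, 8.41 and 8.60 in heart and 8.36, 8.26 and 8.40 in cerebrum. These groups did not overlap, but the gap was small against the spread. Mrps26 differed by 0.20 ± 0.20, Mrps14 by 0.47 ± 0.23 and the second transcript cluster of Mrpl27 by 0.17 ± 0.17. In Mrps26 and Mrps14, MCT heart 3 lay below the cerebra, at 6.62 and 6.54, while the other hearts lay above it at 7.17 to 7.54.

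With PS the same tissue order held. Of 83 rows tested, 75 were called higher in heart and none lower, beside 38.3% and 37.6% over all rows. The median difference was 0.97, against 0.02 over all rows. Mrpl42 again led, at 9.80, 9.55 and 9.75 in heart and 6.76, 6.70 and 7.07 in cerebrum, a difference of 2.86 ± 0.15. Mrps28 followed with 2.27, then Mrpl18 with 1.97 and 1.89, Mrpl14 with 1.97 and Mrps36 with 1.88. Both rows of Mrps5, which had not passed under MCT, passed under PS with 0.40 and 0.45. The row with the opposite sign was the second Mrpl27 transcript cluster, at -0.18 (adjusted p = 0.169).

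The tissue difference was smaller under PS for most members. Only the comparison under PS mixed the sex-linked patterns, and their part was not tested. Of the 83 rows tested under both treatments, 69 had the larger difference under MCT, and 73 passed under both. Over all 12731 rows of the fit on 12 arrays, 41.1% had the larger difference under MCT. A difference above 2-fold was seen for 54 rows under MCT and 39 under PS. For these and for the 73, the share over all rows was not counted. These counts use all 12 arrays and restate the PS effects described next from the side of the tissues.

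In cerebrum, PS went with lower levels of most members. Of 83 rows tested, 70 had a lower mean with PS (84.3%, beside 55% of all 12733 rows tested), and the median difference was -0.19 against -0.03 over all rows. The adjusted test called 11 rows of 10 genes lower and 1 gene higher. Over all rows, 3.93% were called lower and 1.83% higher (501 and 233 rows). With the arrays centred on their medians, 174 of 988 called rows were higher, and with quantile normalization 340 of 812. The 3 PS arrays all lay below the 3 MCT arrays for 38 rows and above them for 6, where such separation held for 20.4% and 12.4% of all rows. A separation of the groups is a lighter criterion than the adjusted test.

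Among large-subunit genes, 7 were called lower in at least 1 row. Mrpl46, a mitochondria-specific protein, read 7.24, 7.34 and 7.16 under MCT and 6.49, 6.72 and 6.67 under PS. The groups were separate, and the fall of -0.62 ± 0.09 (log2, SE, n = 3 and 3, adjusted p = 0.0267) was the largest among the members. Mrpl13, a conserved protein, read 7.89, 7.85 and 7.56 under MCT and 7.22, 7.17 and 7.17 under PS. The PS values were nearly identical to each other, and the difference was -0.58 ± 0.10 (adjusted p = 0.0349). Mrpl54 changed by -0.50, Mrpl11, at the base of the stalk that recruits translation factors, by -0.41, and Mrpl40 by -0.32 (adjusted p = 0.05, just past the threshold before rounding).

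Mrpl12 is the stalk protein itself and is also known to bind the mitochondrial RNA polymerase. Its transcript clusters changed by -0.46 (adjusted p = 0.0391) and -0.38 (adjusted p = 0.0536), so that 1 of the 2 passed. Mrpl10, which holds the stalk, differed by -0.20 and -0.08 in its rows, and neither passed. The first Mrpl27 transcript cluster changed by -0.35 and passed, and the second changed by -0.26 without passing.

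Among small-subunit genes, Mrps28 read 6.10, 6.12 and 5.93 under MCT and 5.50, 5.56 and 5.29 under PS. Every PS value was below every MCT value, with a difference of -0.60 ± 0.10 (adjusted p = 0.0325). Both transcript clusters of Mrps33, a mitochondria-specific protein, fell, by -0.40 and -0.38 on the log2 scale. Mrps10, a conserved protein, has 3 transcript clusters, of which the third passed with -0.51. The first had a difference of -0.52 and the second of -0.21, and neither passed. Their PS arrays scattered from 7.20 to 7.95.

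Mrps21 moved the other way. This small protein of the small subunit read 9.10, 9.08 and 8.70 in cerebrum under MCT and 10.12, 10.25 and 10.25 under PS. All PS arrays were at least 1 log2 unit above the MCT arrays. The rise was 1.25 ± 0.12 (SE, n = 3 and 3, adjusted p = 0.0136), a 2.37-fold increase. In heart the gene read 11.10, 10.93 and 11.31 under MCT and 10.92, 10.82 and 10.91 under PS, a difference of -0.23 that did not pass. The PS cerebra thus lay between the MCT cerebra and the hearts for this transcript.

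In all, 13 rows had higher means with PS in cerebrum, and Mrps21 alone among them passed. The next by size were Mrpl4, a protein of the exit tunnel, with 0.25, Mrpl19 with 0.23, Mrpl37 with 0.19 and Mrpl38 with 0.18, and the rest were smaller. Mrpl42, the extreme of the tissue comparison, differed by 0.00 in cerebrum for its brighter row. The rows of Mrps5, at the other end, differed by -0.06 and -0.15 without passing.

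**Figure D2:**
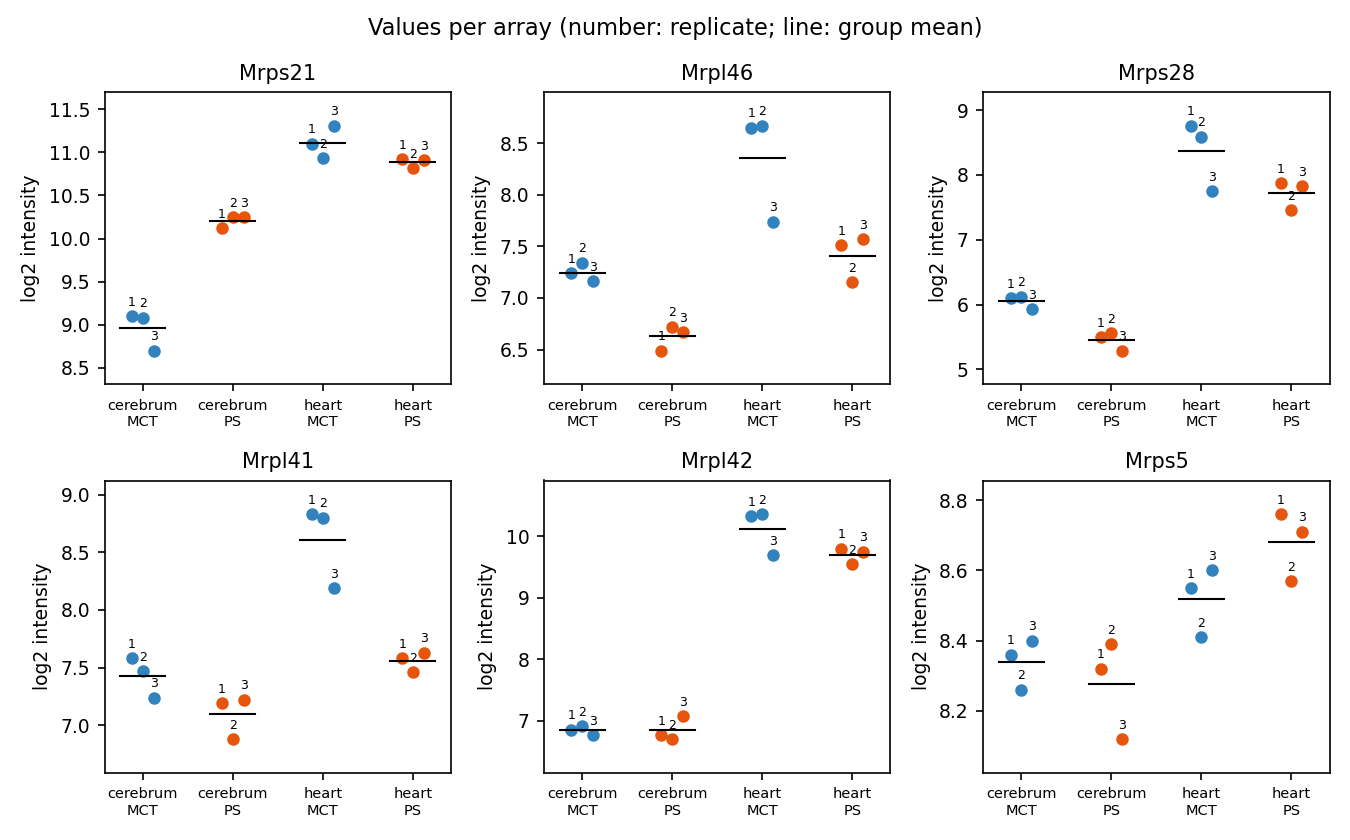
Log2 intensity of 6 member genes on each array, by tissue and treatment, with each point 1 array (numbered by replicate) and the line the group mean, on an axis of its own for each gene. Mrps21 is higher in all 3 PS cerebra (10.12 to 10.25) than in the MCT cerebra (8.70 to 9.10), whereas Mrpl46 and Mrps28 are lower there. MCT heart 3 lies near or within the PS hearts for Mrpl46, Mrps28 and Mrpl42.

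Markers of other cells moved in the same cerebra. All 8 measured markers of striatal medium spiny neurons had lower means with PS, and 2 passed (Scn4b and Tac1). Their summed level was 13.14 to 13.25 on the log2 scale in the MCT cerebra, 10.57 and 10.60 in PS cerebra 1 and 2, and 12.66 in PS cerebrum 3. Relative to the mean of the MCT cerebra, the median of the members was -0.16, -0.19 and -0.20 in PS cerebra 1, 2 and 3. The 4 measured oligodendrocyte markers were also all lower with PS, at a summed level of 10.81 to 11.19 against 11.17 to 11.82, and 1 passed (Mog). All 6 endothelial markers had higher means with PS, and none passed. Of 6 neuronal markers 4 were higher, and of 6 astrocyte markers 5 were lower, again with none past the threshold. The part of any marker set in the result was not tested. PS cerebrum 2, with its median of -0.19, was the PS cerebrum with the male pattern, and the part of that pattern was not tested either.

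The adjusted calls in cerebrum depended on single arrays, over all rows as well as among the members. Leaving out MCT cerebrum 1 or PS cerebrum 1 left no member and no other row past the threshold. Leaving out MCT cerebrum 2 left no member and 2 of all 12732 rows. Leaving out PS cerebrum 2 left 3 members (2 lower), beside 0.793% of all rows called lower and 0.346% higher. Without MCT cerebrum 3, 9 members were called lower and 1 higher, beside 3.28% and 1.55% of all rows. Without PS cerebrum 3, 12 were called lower and 1 higher, beside 6.87% and 5.36% of all rows.

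In heart, PS went with lower levels of more members, but none passed the adjusted test. Of 85 rows tested, 80 had a lower mean with PS (94.1%, beside 42.3% of all 12736 rows), and the median difference was -0.45 against 0.06 over all rows. Limma called 0 members in either direction, where 0.173% of all rows were called lower and 0.157% higher. At an unadjusted p under 0.05, 44 member rows were lower and none higher, beside 10.3% and 13.3% of all rows. The groups were separate with PS lower for 36 members and with PS higher for 1, beside 11.2% and 17.2% of all rows.

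The lowest adjusted p among them was that of Mrpl41, a mitochondria-specific protein of the large subunit. It read 8.83, 8.80 and 8.19 under MCT and 7.58, 7.46 and 7.63 under PS. The groups did not overlap, and the difference was -1.05 ± 0.18 (SE, n = 3 and 3, adjusted p = 0.082). Mrpl14 read 10.03, 9.94 and 9.41 under MCT and 9.18, 8.79 and 8.91 under PS, a difference of -0.83 ± 0.19 (adjusted p = 0.119). Mrpl55 and Mrpl28, both conserved proteins of the large subunit, each differed by -0.72. In the small subunit, Mrps16 differed by -0.60 and Mrps9 by -0.57, without passing.

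The genes called lower in cerebrum were lower in heart as well, but without passing. Mrpl13 differed by -0.97, Mrpl46 by -0.94, Mrpl54 by -0.91 and Mrps28 by -0.65. For Mrpl46 the values under MCT were 8.65, 8.67 and 7.74 and those under PS 7.51, 7.15 and 7.57. MCT heart 3 was thus just above the highest PS heart, and the other MCT hearts were more than 1 log2 unit above it. In Mrps28, MCT heart 3 at 7.75 lay inside the range of the PS hearts, 7.46 to 7.87.

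By role, all 29 large-subunit genes with bacterial counterparts had lower means with PS in heart (median -0.48), as did 17 of 19 mitochondria-specific genes of the large subunit (-0.43). In the small subunit, 13 of 15 genes with bacterial counterparts were lower (-0.57) and all 10 mitochondria-specific genes (-0.32). The exceptions were few and small. Mrps5 differed by 0.16 in both of its rows, Mrpl38 by 0.03, Mrps2 by 0.01 and Mrpl39 by 0.00, none past the threshold. The signs of Mrpl38, Mrps2 and Mrpl39 turned when single arrays were left out.

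The number of calls in heart depended on MCT heart 3. The median of the 87 member rows, relative to the mean of the MCT hearts, was 0.20 and 0.10 in MCT hearts 1 and 2 and -0.29 in MCT heart 3. In the PS hearts it was -0.28, -0.54 and -0.48. MCT heart 3 was therefore level with PS heart 1. The median SD of the members was 0.26 within the MCT hearts and 0.13 within the PS hearts, against 0.17 and 0.12 over all rows. Mrpl47, with 8.64, 8.93 and 7.50 in the MCT hearts for its first transcript cluster, had the highest SD of 0.76.

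Without MCT heart 3, 58 of 85 members were called lower and none higher, beside 13.6% of all rows called lower. The median difference was then -0.585. Mrpl41 stood at -1.26 (adjusted p = 0.0033), Mrpl14 at -1.02 (adjusted p = 0.0074) and Mrpl55 at -0.87 (adjusted p = 0.0066). With both hearts numbered 3 left out, the arrays in which Myl7 was high, 30 members were called lower, beside 5.74% of all rows. No array was dropped from the values given above. MCT heart 3 also had the highest Myl7 of the hearts, with PS heart 3 next. Over all rows it correlated at r = 0.9897, 0.9842 and 0.9893 with PS hearts 1, 2 and 3. With MCT hearts 1 and 2 it correlated at 0.9786 and 0.9832. The part of these differences in the result was not tested.

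**Figure D3:**
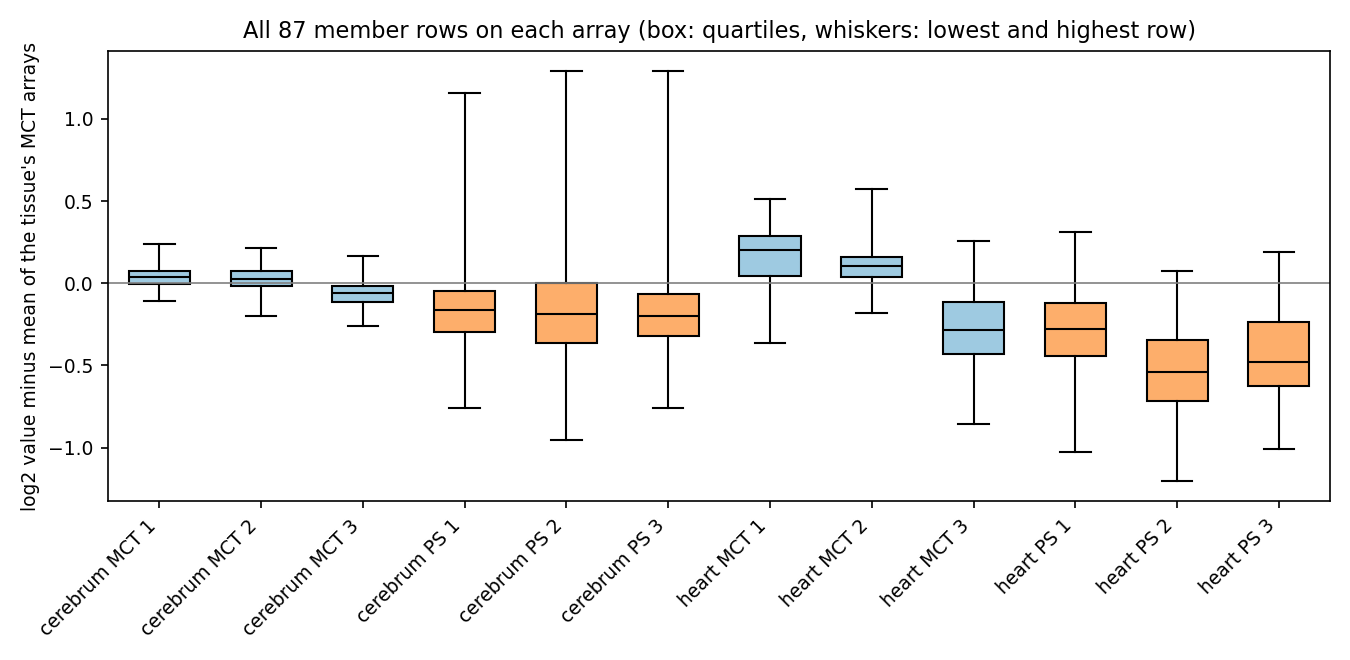
Difference of each member row from the mean of the MCT arrays of its tissue (log2), as 1 box per array with the quartiles, the median as a line and whiskers to the lowest and highest row. Medians in the PS hearts run from -0.54 to -0.28 and in the PS cerebra from -0.20 to -0.16, and MCT heart 3 stands at -0.29.

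Other families with related roles were lower in the PS hearts too. The summed level of 68 cytosolic ribosomal protein genes, the counterparts in the cytosol, was 17.03, 16.94 and 16.62 in the MCT hearts and 16.59, 16.54 and 16.57 in the PS hearts. In heart, 62 of 66 tested had lower means with PS (median -0.37), and 0 passed. In cerebrum, 58 of 65 were lower (median -0.24) and 4 passed. For 34 Nduf genes of respiratory complex I, 30 were lower in heart (median -0.34, 0 passed) and 26 in cerebrum (median -0.20, 2 passed). No difference between these families and the mitochondrial ribosomal genes was tested. Between the tissues under MCT, all 34 Nduf genes were called higher in heart (median 1.61), and 46 of 66 cytosolic ribosomal genes (median 0.56). Of 9 cardiomyocyte markers, 5 had higher and 4 lower means with PS in heart, and none passed. Most of them read near the highest value in the table, 13.11, as with Actc1 at 12.65 to 12.80. Ryr2, a calcium release channel, read 10.23, 10.47 and 11.30 under MCT and 11.02, 10.80 and 11.03 under PS. Nppb, one of the markers with a lower mean, read 10.94, 11.02 and 9.80 under MCT and 9.02, 10.67 and 8.92 under PS. The 6 endothelial markers summed to 11.13 to 11.52 under MCT and 11.74 to 11.95 under PS. Of these, 5 had higher means with PS and 1, Cldn5, a lower mean, and none passed.

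The PS effects in the 2 tissues were then set side by side. Of the 83 rows tested in both, 67 had lower means with PS in both tissues, 2 had higher means in both and 14 had opposite signs. The shares of these patterns over all rows were not counted. All 11 rows called lower in cerebrum were lower in heart. The difference was more negative in heart for 69 rows. Across the 83 rows the effects had Pearson's r of 0.43 and Spearman's rho of 0.46, given as a description, since rows share arrays and are not independent.

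A direct test of the difference between the tissues called 1 member, Mrps21, and called it lower in heart. Its PS effect was -0.23 in heart and 1.25 in cerebrum, a difference of -1.48 ± 0.18 (SE, 12 arrays, adjusted p = 0.0116). Over all 12731 rows, 1.10% were called higher and 0.424% lower (140 and 54 rows). With the arrays centred on their medians, 251 of 294 called rows were higher. The next by p were Mrpl55 (-0.77), Mrpl19 (-0.58), Mrps16 (-0.66), Mrpl14 (-0.74) and Mrps17 (-0.59), none past the threshold. The median over the members was -0.23, against 0.07 over all rows. Without MCT heart 3, the count rose from 1 to 26, all lower in heart, and 5.16% of all rows were then called lower. With all arrays, the test called no other member.

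**Figure D4:**
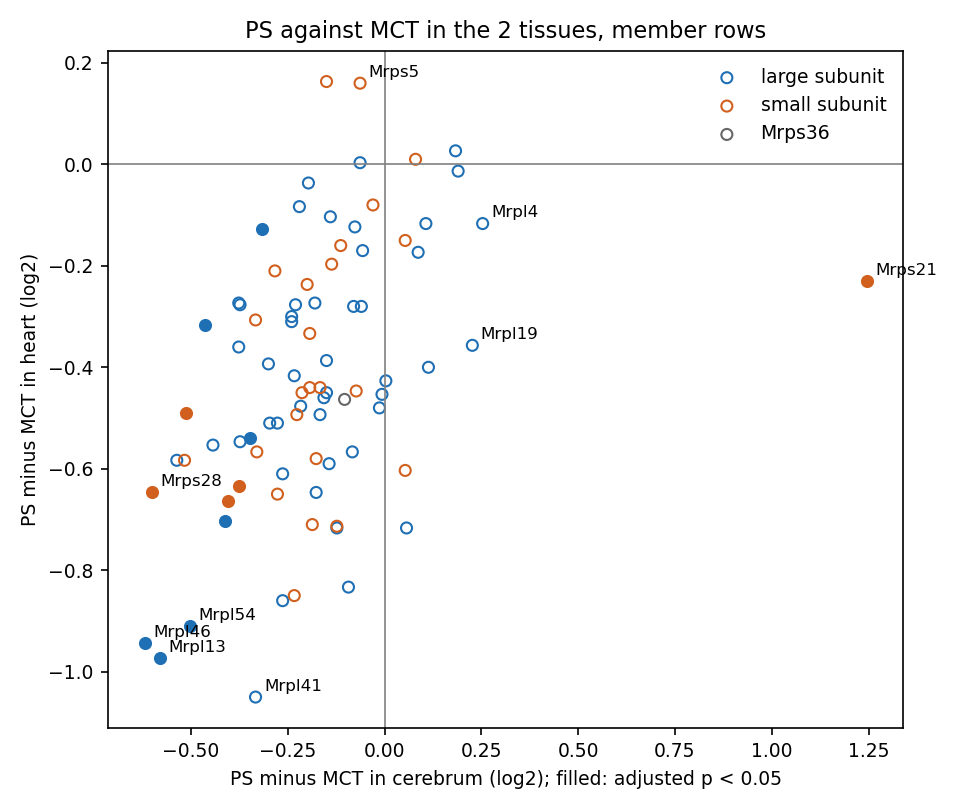
Log2 difference of PS minus MCT in heart (vertical axis) against that in cerebrum (horizontal axis), each point 1 member row, coloured by subunit and filled where the cerebrum difference passed an adjusted p of 0.05. Most points, 67 of 83, lie in the lower left, and Mrps21 stands alone at the right with 1.25 in cerebrum and -0.23 in heart.

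As many as 12 genes had more than 1 transcript cluster, and most sets agreed in sign. Mrpl23, a conserved protein at the exit of the tunnel, had 2 rows that differed between the tissues under MCT by 1.20 and 1.22 and between PS and MCT in cerebrum by -0.38 and -0.37. Mrpl51 gave 1.78 and 1.56 between the tissues, and Mrpl10 0.52 and 0.25. Whether such rows measure 1 gene or near-identical copies was not tested. The second rows of Mrpl42, Mrpl47 and Mrps30 lay below the filter in most or all comparisons, and so did Mrpl22 in those with PS in cerebrum. For the dim row of Mrpl42 the values were 6.15, 5.74 and 5.02 in MCT hearts and 3.51 to 3.85 in all cerebra.

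The wider machinery of mitochondrial protein synthesis was examined through lists of named genes. Ribosomal proteins under other symbols were measured for 3 genes, and all were higher in heart under MCT. Chchd1, a small-subunit protein, read 7.39, 7.50 and 7.10 in MCT cerebra and 6.81, 6.50 and 6.81 in PS cerebra. It fell by 0.62 on the log2 scale (adjusted p = 0.0443). In heart it read 9.84, 9.59 and 8.59 under MCT and 8.31, 8.11 and 8.02 under PS, a difference of -1.19 that did not pass. Dap3 and Ptcd3, also of the small subunit, differed by -0.07 and -0.28 in cerebrum without passing.

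Translation factors load and move the ribosome. Of 14 tested between the tissues under MCT, 12 were called higher in heart and 1 was called lower. Taco1, an activator of the translation of a cytochrome oxidase subunit, was higher by 2.09, Mrrf, the recycling factor, by 1.64, and Gfm1, an elongation factor, by 1.60. In cerebrum 1 of 14 passed with PS. Tufm, the elongation factor that carries tRNAs to the ribosome, rose by 0.41 ± 0.09 (adjusted p = 0.0484). In heart none of 15 passed.

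Assembly factors and rRNA-modifying enzymes build the subunits. Of 20 tested, 16 were called higher in heart under MCT and 1 was called lower. Nsun4, an rRNA methyltransferase, led with 2.05. In cerebrum, Mtg1 and Mtg2, GTPases that act late in large-subunit assembly, changed by -0.48 (adjusted p = 0.0371) and -0.47 (adjusted p = 0.046) with PS. None of the 20 was called higher, and 7 had higher means with PS. In heart, Fastkd2 differed by -0.94, Malsu1, which binds Mrpl14, by -0.81, and Trub2 by -0.56, and none of 21 passed.

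Aminoacyl-tRNA synthetases and related enzymes charge the mitochondrial tRNAs. Under MCT, 15 of 19 were called higher in heart and none lower, among them Cars2 with 1.71 and Fars2 with 1.61. With PS in cerebrum 1 of 19 passed, Nars2 for asparagine, with -0.54 (adjusted p = 0.0345). Of 13 genes of mitochondrial transcription and RNA handling, 12 were called higher in heart under MCT, and all had higher means. Among them was Tefm, the elongation factor of the mitochondrial polymerase, with 2.19. Mterf2 changed by -0.37 with PS in cerebrum and, like Mrpl40, lay just past the threshold before rounding.

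Activators of nuclear genes for mitochondria were listed last. Of 12, 7 were called higher in heart under MCT, with Esrrb at 3.15, Esrra at 1.63 and Gabpa, which binds the ETS word, at 1.31. With PS none passed in either tissue. In heart, Esrra, a nuclear receptor, read 8.31, 8.15 and 8.04 under MCT and 7.71, 7.47 and 7.72 under PS, a difference of -0.53 (adjusted p = 0.123). Its coactivator gene Ppargc1a read 9.20, 9.55 and 9.89 under MCT and 10.09, 10.06 and 10.33 under PS, a difference of 0.61 (adjusted p = 0.137). In both genes the groups were separate. Of the 12 activators, 10 had higher means with PS in heart and 2 lower, with a median of 0.23.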

How the data were processed

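Total RNA of cerebrum and heart was labelled with biotin for arrays that probe whole transcripts, per the labels' protocols. The authors deposited 1 log2 intensity per transcript cluster and array, and the submitters' processing notes name Affymetrix Expression Console. The log base was inferred from the values (1.9 to 13.11), and for background correction, probe summary and genome build the settings were not given in the sources used here. Array medians were 4.89 to 5, and no further normalization was applied. A summary per transcript cluster can hide exons that differ, and equal medians hide a shift of all transcripts.

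Of 35556 rows, 21218 had 1 gene symbol in the supplied annotation. Groups came from the labels, 3 arrays each. Fits used limma 3.58.1 in R 4.3.3 (lmFit and eBayes) on rows whose mean in the arrays compared reached the 40th percentile, with Benjamini-Hochberg adjustment over all tested rows and a threshold of 0.05. PS was compared with MCT within each tissue and heart with cerebrum within each treatment, on the 6 arrays concerned, and the difference of the PS effects on all 12. Summed levels are log2 of summed linear values. The number of arrays limits the precision. Each p-value sets a difference against the spread between these samples, which limma moderates with all tested rows. Array weights, an alternative, were estimated gene by gene.

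Named were member rows past the threshold (up to 12 per direction), otherwise up to 6 by lowest p, the 10 largest tissue differences, all rows of genes with several rows, rows below the filter, up to 4 genes per list, and check genes. The text gives a selection of these. The members and lists were chosen with earlier results of these data known. In the tissue comparison under MCT, deviations of arrays with equal replicate numbers correlated at r = 0.114, 0.102 and 0.287. Unequal numbers there gave -0.248 to 0.191. Under PS, equal numbers gave 0.115, 0.098 and 0.054, and unequal numbers -0.109 to 0.026. Between PS and MCT, equal numbers gave 0.113, -0.15 and -0.263 in cerebrum and 0.032, 0.086 and 0.122 in heart. No label states a pairing. The main fits that involve both tissues treated the arrays as independent, although the 12 arrays stand for 6 mice in the design. Under MCT, the fit with the number as a replicate block called 79 members, as did the fit without it.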

Additional observations from a re-analysis of the deposited data

Results flagged for a closer look

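Mrps21 differed between the tissues in its difference between PS and MCT. The sex-linked pattern also differed between PS and MCT, fully in heart and partly in cerebrum, and its part was not tested. The test of the difference itself gave -1.48 (log2, heart effect minus cerebrum effect, limma adjusted p = 0.0116 over all rows). The 3 PS cerebra lay above and the 3 PS hearts below the means of their MCT groups. The difference was past the threshold under each of the alternatives run, with adjusted p from 0.00123 to 0.041.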

How the results depend on the processing

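Replicates are 3 arrays per group, and the number of arrays limits every count. In cerebrum, 12 members passed (11 lower, 1 higher). With no filter on low values 7 passed, and 513 of all 21218 rows did. When all transcript clusters were tested 2 passed, and 189 of all 21343 rows did. Array weights gave 24 (23 lower, where 11.5% of all rows were lower), and the replicate block left 0 members and 0 rows. Leaving out 1 array at a time gave 0 to 13. In heart, where 0 passed, 63 passed with array weights (62 lower, where 17.2% of all rows were lower) and 30 with both heart arrays numbered 3 left out, an alternative chosen after the data were seen. Leaving out 1 array gave 0 to 58 in heart, with 58 only without MCT heart 3. The replicate block left heart at 0 and both tissue comparisons at 79 and 75. For the difference between tissues, where 1 passed, 19 passed with array weights (all lower, beside 6.96% of all rows), 1 with the replicate block, and 1 to 26 when 1 array was left out. The causes of these changes were not tested. The tissue counts stayed between 70 and 82 under MCT and between 68 and 79 under PS under the alternatives run, the 68 with 1 row per gene.

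The directions of most members held. In heart, Mrps2 turned to -0.032 with quantile normalization and -0.041 with array weights. With 1 array left out, values in heart ran from -0.05 to 0.06 for Mrps2, from -0.037 to 0.103 for Mrpl38 and from -0.082 to 0.133 for Mrpl39. The difference between tissues for the second Mrpl12 row ran from -0.075, without MCT heart 3, to 0.30. Quantile normalization moved the median of all rows under MCT from -0.07 to 0.08 and the member median to 1.29.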
